A study of Mus musculus with 8 samples.

Results

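The RNAs of 10 genes that hold sister chromatids together in meiosis, guard that hold or release it were followed through mouse oocyte maturation. They were chosen by symbol, as subunits of cohesin (*Rec8*, *Smc1b*, *Smc1a*, *Smc3*, *Stag3*, *Rad21*), the shugoshins *Sgo1* and *Sgo2a*, separase (*Espl1*) and securin (*Pttg1*). Of the 10, 9 were listed in all 8 libraries and all 9 passed the filter on low values, so that they stand among 13968 genes tested of 15962 listed in every library. *Rec8*, which encodes the kleisin that closes the meiotic cohesin ring, was not analysed here.

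Cohesin is a ring that encircles sister chromatids. It is built from a pair of SMC proteins, a kleisin that joins their heads and a STAG protein bound to the kleisin. Meiotic cells use their own versions of several subunits, among them SMC1B, REC8 and STAG3. In the oocyte the rings are loaded before birth and have to last until the divisions that follow meiotic resumption. Separase cuts the kleisin at anaphase, securin holds separase inactive until then, and shugoshins bring the phosphatase PP2A to centromeres, where cohesin has to survive the first division.

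The libraries came from 4 groups of 2, with 15 oocytes in each according to the sample labels. GV oocytes were held at the prophase arrest with an intact germinal vesicle, and MII oocytes had been cultured in vitro to the arrest at metaphase II. Neither of these groups was injected. Btg4wt and Btg4tm oocytes were MII oocytes that overexpressed, from injected RNA, either wild-type BTG4, an adaptor that brings the deadenylase complex to maternal mRNAs, or a form with 3 neighbouring phosphosites changed to alanine. All groups came from ICR females and kept their own *Btg4* gene, so the mutant was expressed beside the oocyte's own protein. According to the paper, both injected forms seemed to lower the amount of that own protein, a point it leaves to be clarified. The study's methods collected oocytes from superovulated mice 6 weeks old. The labels state 3 samples per group, of which 2 were analysed here, and do not say whether these came from separate mice or collections. The p-values therefore measure only the spread between these libraries, which may be technical.

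RNA was reverse-transcribed from an oligo(dT) primer, amplified and sequenced, and the values are length-corrected shares of a library (TPM). A TPM does not keep the sequencing depth, which is unknown here, and a change in tail length can move a value as a change in molecule number does. In pools of oocytes, fewer cells that hold an RNA and less of it per cell cannot be told apart. Libraries were brought to one scale by their median ratio over genes, and the factors lay between 0.948 and 1.11. Replicates had Pearson correlations of 0.982 to 0.987 across genes. All 10 oocyte markers were listed, with a summed level of 23100 to 25500 scaled TPM in GV and Btg4tm and of 15200 to 17600 in MII and Btg4wt libraries. The oocyte markers did not all move with this sum. In MII against GV 4 had log2 fold changes below 0 and 6 above it, from -2.59 (*Zp3*) to 1.21 (*Dazl*). Of 20 markers of the surrounding cumulus and granulosa cells, 8 were listed in every library, with a sum of 37 and 37.1 scaled TPM in GV, 47 and 50.9 in MII, 47.5 and 48.4 in Btg4wt and 42.7 and 37.7 in Btg4tm that came mostly from *Nr5a2* and *Cyp19a1*. This small sum moved with the groups in the direction of the members, but the markers in it did not all do so. *Inha*, which encodes an inhibin subunit, had 4.37 and 2.11 scaled TPM in GV, 0 and 0.532 in MII, 1.88 and 1.09 in Btg4wt and 9.83 and 5.18 in Btg4tm libraries, and was called lower in MII than in GV (log2 fold change -1.72, adjusted p = 0.0048 from limma) and higher in Btg4tm than in Btg4wt (1.74, adjusted p = 0.0061 from limma). The part of these markers in the members' values was not tested. The defining markers *Amh*, *Foxl2* and *Fshr* were not among these 8. *Amh* and *Foxl2* were listed in no library. *Fshr* was listed in the injected libraries only, with 0.0582 and 0.152 TPM as deposited in Btg4wt and 0.468 and 1.42 in Btg4tm, and was not tested. *Btg4* RNA had 5180 and 5510 scaled TPM in Btg4wt and 3730 and 4070 in Btg4tm oocytes, against 5790 and 6000 in MII oocytes, so that neither injected group stood above uninjected MII oocytes in this RNA. The paper showed overexpression of both proteins by immunoblot, and these RNA values do not measure protein.

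Between GV and MII oocytes, 8 of the 9 RNAs were higher in MII with libraries scaled by the median of ratios, and all 9 were lower when the mitochondrially encoded RNAs set the scale. With the first scaling the largest differences were those of securin and *Smc3*, at 2.9-fold and 2.83-fold, whereas *Stag3* stood lower under both scalings, without passing the test under the first. In Btg4tm oocytes all 9 stood lower than in Btg4wt oocytes, and on the mitochondrial scale 8 of them, *Sgo2a* excepted, stood higher. Relative to the median of all genes, 8 members lay above it in the first comparison and 9 below it in the second under both scalings, and *Stag3* changed side in the first.

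**Figure D1:**
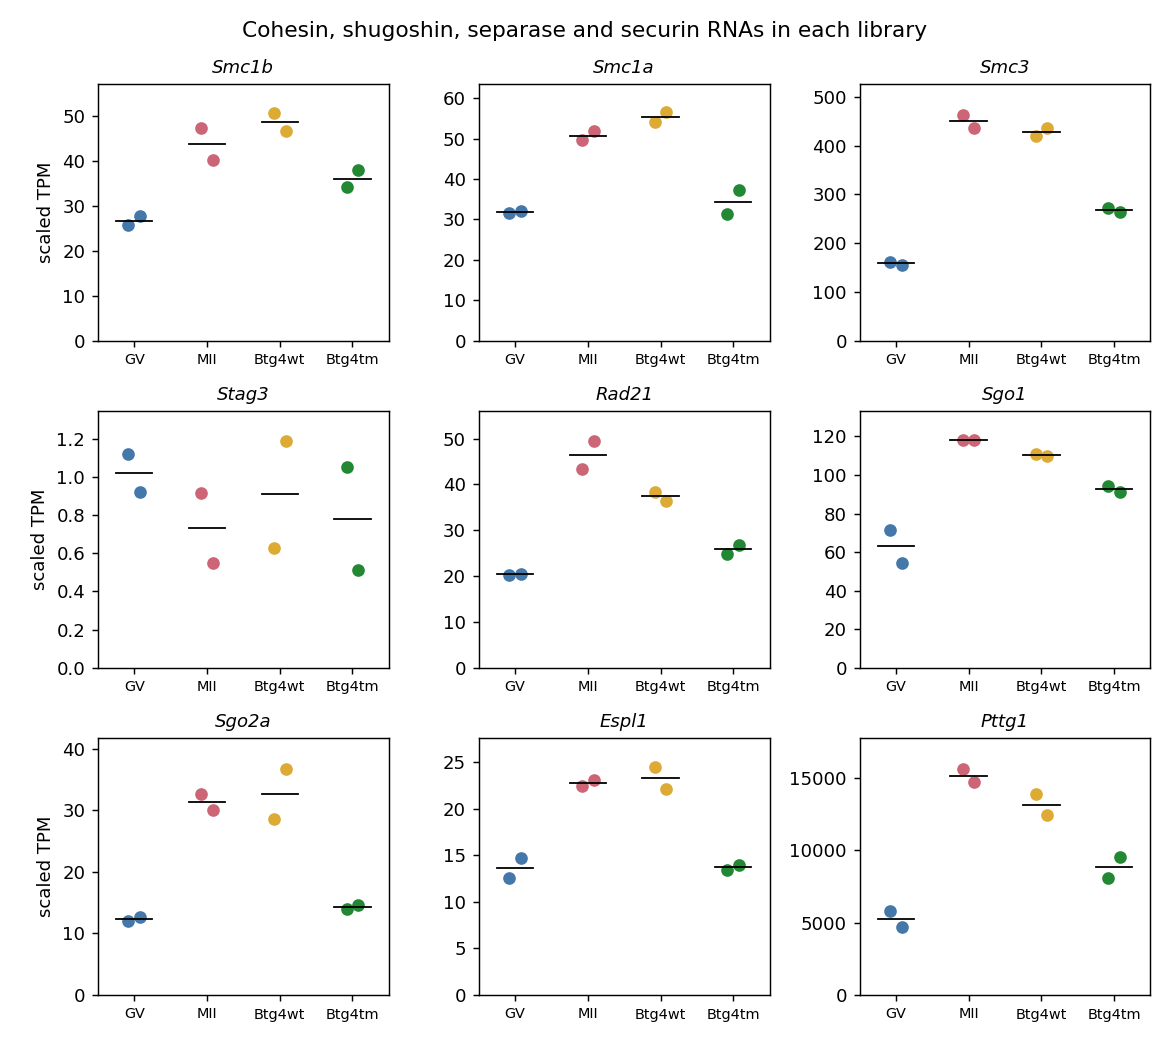
Scaled TPM (vertical axes, each starting at 0) of the 9 members in the 8 libraries, by group; points are single libraries and lines are the means of 2. In every panel but that of Stag3 the GV libraries have the lowest mean, Btg4tm the next and MII and Btg4wt the highest, an order of library shares in which MII versus GV and Btg4tm versus Btg4wt turn around, Sgo2a in Btg4tm excepted, when the mitochondrially encoded RNAs set the scale.

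The SMC subunits form the arms of the ring, SMC3 being common to all cohesin and SMC1B the meiotic partner that stands beside the general SMC1A. *Smc3* (chr19:53600398-53645833, GRCm38) had 162 and 155 scaled TPM in the GV libraries and 464 and 436 in MII. It had 420 and 436 in Btg4wt and 273 and 264 in Btg4tm. The Btg4tm libraries thus lay between GV and the other MII groups without touching either. *Smc3* rose by 1.5 on the log2 scale between GV and MII (standard error, SE, 0.09, adjusted p = 4.1e-06 from limma). In Btg4tm against Btg4wt oocytes its log2 fold change was -0.67 (SE 0.09, adjusted p = 0.00042 from limma), short of the 2-fold that a call required.

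*Smc1b* (chr15:85064689-85131964) had 25.7 and 27.7 scaled TPM in GV, 47.4 and 40.2 in MII, 50.8 and 46.8 in Btg4wt and 34.2 and 37.9 in Btg4tm oocytes. *Smc1a* (chrX:152016428-152062694) had 31.6 and 32 in GV, 49.7 and 51.9 in MII, 54.2 and 56.6 in Btg4wt and 31.3 and 37.4 in Btg4tm. Both paralogs were higher in each MII library than in each GV library, and in Btg4tm oocytes *Smc1a* overlapped with GV whereas *Smc1b* did not. In MII over GV their log2 fold changes were close, 0.69 for *Smc1b* (SE 0.13, adjusted p = 0.0019 from limma) and 0.66 for *Smc1a* (SE 0.12, adjusted p = 0.0018 from limma). In Btg4tm against Btg4wt oocytes they were -0.43 (SE 0.13, adjusted p = 0.025 from limma) and -0.68 (SE 0.12, adjusted p = 0.0021 from limma). All 4 differences passed at the adjusted p-value and none was 2-fold. That of *Smc1b* in Btg4tm oocytes no longer passed without Btg4wt replicate 1, Btg4wt replicate 2 or Btg4tm replicate 1 (adjusted p up to 0.11 from limma).

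The kleisin RAD21 is the one that mitotic cells use, and STAG3 is the meiotic member of its family. *Rad21* (chr15:51962240-51991747) had 20.3 and 20.4 scaled TPM in GV, 43.4 and 49.5 in MII, 38.4 and 36.4 in Btg4wt and 24.8 and 26.8 in Btg4tm oocytes. No library of one group overlapped with another group. *Rad21* rose 2.21-fold in MII over GV (log2 fold change 1.15, SE 0.12, adjusted p = 8.3e-05 from limma), a call that was lost with the TPM as deposited, where the log2 fold change was 0.99. Between Btg4tm and Btg4wt oocytes its log2 fold change was -0.52 (SE 0.12, adjusted p = 0.0084 from limma).

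*Stag3* (chr5:138280240-138312393) was near the limit of the tables, between 0.512 and 1.19 scaled TPM in all 8 libraries. The GV libraries held 1.12 and 0.921, MII 0.918 and 0.548, Btg4wt 0.629 and 1.19 and Btg4tm 1.05 and 0.512. The replicates of each MII group, including the injected ones, lay farther apart than the means of any pair of groups. Neither MII against GV (log2 fold change -0.23, 95% interval -0.83 to 0.37, adjusted p = 0.47 from limma) nor Btg4tm against Btg4wt (-0.1, 95% interval -0.7 to 0.5, adjusted p = 0.78 from limma) passed the test. At this level the added pseudocount of 1 TPM shrinks any fold change, and these values do not show that *Stag3* was stable.

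Shugoshins protect cohesin at centromeres, and in mouse oocytes SGO2, the product of *Sgo2a*, is the one known for this in the first meiotic division. *Sgo2a* (chr1:57995971-58025899) had 12 and 12.6 scaled TPM in GV, 32.7 and 30.1 in MII, 28.6 and 36.7 in Btg4wt and 14 and 14.6 in Btg4tm oocytes. The Btg4tm libraries were just above GV and far from the other MII groups. *Sgo2a* rose 2.43-fold in MII over GV (log2 fold change 1.28, SE 0.15, adjusted p = 0.00014 from limma). It fell in Btg4tm against Btg4wt oocytes, to 0.457 of the level (log2 fold change -1.13, SE 0.15, adjusted p = 0.00045 from limma). Without Btg4wt replicate 2, the higher of that group, the log2 fold change was -0.96 and the call was lost (adjusted p = 0.0039 from limma).

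The count of *Sgo2a* is less certain than those of the other members. Of its exonic bases 35% overlap exons of *Kctd18*, which counting without strand cannot separate. On either strand, 48.3% of the 50-base stretches of its transcript also occur in *Kctd18* or *Sgo2b*. These shares can cover the same bases and are not separate limits. Of the 50-base stretches of *Sgo2b*, 3.55% occur in *Kctd18* or *Sgo2a*. *Kctd18* itself had 0.802 to 2.62 scaled TPM. Its log2 fold change was 0.81 in MII over GV (adjusted p = 0.014 from limma) and -0.29 in Btg4tm against Btg4wt oocytes (adjusted p = 0.34 from limma). Its part in the values of *Sgo2a* was not tested.

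*Sgo1* (chr17:53674786-53689333), the shugoshin of mitotic cells, had 71.3 and 54.5 scaled TPM in GV and 118 in both MII libraries. It had 111 and 110 in Btg4wt and 94.5 and 91.3 in Btg4tm oocytes. On this scale the Btg4tm libraries were closer to Btg4wt than to GV, unlike those of *Sgo2a*. In MII over GV the log2 fold change of *Sgo1* was 0.91 (SE 0.13, adjusted p = 0.00045 from limma), which became 1.1 and a call without GV replicate 1. The difference between Btg4tm and Btg4wt oocytes did not pass the test (log2 fold change -0.25, 95% interval -0.55 to 0.05, adjusted p = 0.15 from limma).

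Separase is the protease that opens the ring, and securin is its inhibitor. *Espl1* (chr15:102296266-102324357), encoding separase, had 12.6 and 14.7 scaled TPM in GV, 22.4 and 23.1 in MII, 24.5 and 22.1 in Btg4wt and 13.4 and 14 in Btg4tm oocytes. The Btg4tm libraries lay inside the GV range. In MII over GV its log2 fold change was 0.7 (SE 0.14, adjusted p = 0.0026 from limma), and in Btg4tm against Btg4wt oocytes it was -0.72 (SE 0.14, adjusted p = 0.0031 from limma).

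*Pttg1* (chr11:43420250-43426251), encoding securin, was on another scale of abundance, with 5800 and 4690 scaled TPM in GV and 15600 and 14700 in MII. It had 13900 and 12400 in Btg4wt and 8110 and 9560 in Btg4tm oocytes. Securin RNA was thus the most abundant member in every library on this length-corrected scale. It rose 2.9-fold in MII over GV (log2 fold change 1.54, SE 0.14, adjusted p = 3.8e-05 from limma), a call that was lost with quantile normalization, where the log2 fold change was 0.83 and that of *Sgo1*, at 1.07, became a call. In Btg4tm against Btg4wt oocytes it was -0.58 (SE 0.14, adjusted p = 0.01 from limma), which did not pass without Btg4wt replicate 1 or with quantile normalization (adjusted p = 0.062 and 0.16 from limma).

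Counted together, 4 of the 9 members were called higher in MII than in GV oocytes (*Smc3*, *Rad21*, *Sgo2a* and *Pttg1*), where 12.5% of all genes tested were called higher, and none was called lower, where 24% were. At the adjusted p-value alone 8 were higher, where 29.8% of all genes were, and none lower, where 32.8% were. The median log2 fold change of the 9 was 0.91, that of all genes tested was 0, and the members lay between the 43.2 percentile (*Stag3*) and the 98.2 percentile (*Pttg1*) of all genes. In Btg4tm against Btg4wt oocytes 1 of 9 was called lower, *Sgo2a*, where 7.94% of all genes were, and at the adjusted p-value alone 7 were, where 23.3% of all genes were. None was higher, where 18.1% of all genes were called higher and 26.2% were higher at the adjusted p-value alone. The median was -0.58 for the members and 0.01 for all genes. In the first comparison the libraries of the groups did not overlap for any of the 9, *Stag3* being the one on the lower side, where 41.1% of all genes were separated upward and 41.6% downward. In the second they did not overlap for 8, all on the lower side, where 36.7% of all genes were separated downward and 37.6% upward.

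These directions depend on what is held constant. The 19 mitochondrially encoded RNAs held 0.623 and 0.648% of the listed TPM in GV, 2.7 and 2.6% in MII, 2.05 and 1.75% in Btg4wt and 0.762 and 1.02% in Btg4tm libraries. Setting their sum equal moved the median log2 fold change of all genes to -1.74 in MII against GV and to 0.88 in Btg4tm against Btg4wt oocytes. On that scale all 9 members were lower in MII, 6 of them by a call, and 8 of 9 were higher in Btg4tm oocytes, none by a call. Relative to the median of all genes, 9 of 9 then lay above it in MII against GV, where *Stag3* had been below it on the first scale, and 9 of 9 lay below it in Btg4tm against Btg4wt, as on the first scale. The members' median stood 0.91 above that of all genes in the first comparison with the median of ratios and 0.47 above it on the mitochondrial scale, and in the second it stood at -0.59 and -0.46 from it. On the mitochondrial scale the members lay between the 59.3 percentile (*Smc1a*) and the 92.5 percentile (*Pttg1*) in the first comparison and between the 8.98 percentile (*Sgo2a*) and the 47.6 percentile (*Sgo1*) in the second. Which scale is closer to molecules per oocyte cannot be told from these libraries, and no spike-in RNA is given in the sources used here.

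**Figure D2:**
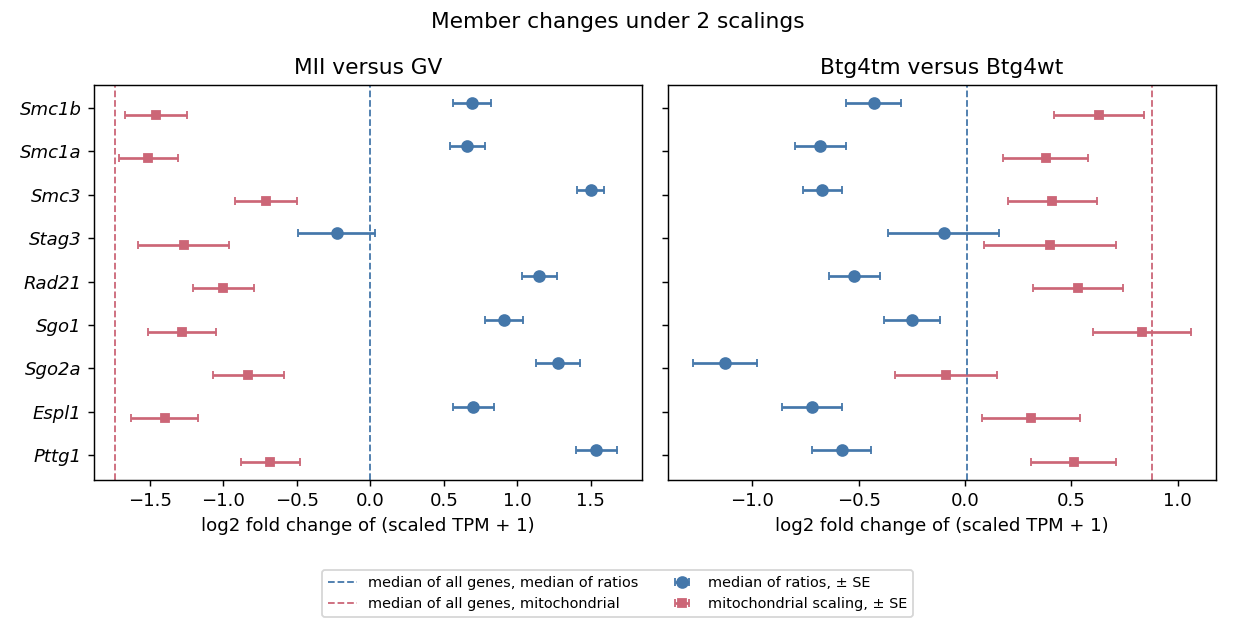
Log2 fold changes of (scaled TPM + 1) for the 9 members in MII versus GV (left) and Btg4tm versus Btg4wt (right), with libraries scaled by the median of ratios (circles) or to the mitochondrially encoded RNAs (squares); bars are ± 1 standard error and dashed lines the median of all genes under each scaling. The second scaling turns the sign of every member but Stag3 on the left and Sgo2a on the right, while 9 of 9 squares lie right of their line on the left, where the circle of Stag3 lies left of its own, and left of it on the right.

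With libraries scaled by the median of ratios, the injected controls came out close to uninjected MII oocytes. Between Btg4wt and MII oocytes the members had log2 fold changes from -0.3 (*Rad21*, 95% interval -0.59 to -0.02, adjusted p = 0.4 from limma) to 0.16 (*Smc1b*, 95% interval -0.14 to 0.46, adjusted p = 0.69 from limma). None of the 9 was called, and limma called 0% of all genes in either direction, with 1655 genes (11.8%) at an unadjusted p under 0.05. Libraries of the groups did not overlap for 4 members on the lower side (*Smc3*, *Rad21*, *Sgo1* and *Pttg1*), where 20.8% of all genes were so separated, and for 1 on the higher side (*Smc1a*), where 24.1% were. The mitochondrial scale put the members 0.18 (*Rad21*) to 0.63 (*Smc1b*) above MII in log2 fold change, none by a call. The median of all genes was then 0.39. A lack of calls with so few libraries does not show equal levels.

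Set against GV oocytes, Btg4tm oocytes were not at one distance for all members. These groups differ in stage, injection and the BTG4 form expressed, which cannot be told apart here. The comparison also shares its libraries with MII against GV and Btg4tm against Btg4wt. *Smc3* and *Pttg1* both stood 0.76 above the GV level on the log2 scale (adjusted p = 0.0049 and 0.016 from limma) and *Sgo1* 0.57 above it (adjusted p = 0.032 from limma). These 3 were higher at the adjusted p-value, where 7.66% of all genes were, and none was called, where 1.02% were called higher. Of the 3, *Smc3* passed with any single library left out, whereas *Pttg1* did not without GV replicate 2 or Btg4tm replicate 2 (adjusted p up to 0.078 from limma) and *Sgo1* did not without any of 6 libraries, all but GV replicate 1 and Btg4wt replicate 2 (adjusted p from 0.051 to 0.13 from limma), and stood at the threshold, 0.05, without the latter. None was lower at the adjusted p-value, where 3.73% were. Libraries of Btg4tm lay above those of GV without overlap for 6 members, where 25.3% of all genes did. *Espl1* (0.01, 95% interval -0.31 to 0.33), *Smc1a* (0.1, 95% interval -0.18 to 0.38) and *Sgo2a* (0.2, 95% interval -0.15 to 0.55) were nearest to GV among the 8 members above 5 TPM. *Rad21* at 0.32 and *Smc1b* at 0.42 lay between (adjusted p = 0.13 and 0.075 from limma). Scaled to the mitochondrially encoded RNAs, *Smc3* stood 0.13 and *Pttg1* 0.12 above GV and the other 7 below it, from -0.62 to -0.06.

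Ratios of members within a library do not depend on the scaling between libraries, and 2 libraries against 2 cannot pass a permutation test, so they are given without one. *Sgo2a* to *Sgo1* was 0.169 and 0.232 in GV, 0.279 and 0.254 in MII, 0.258 and 0.332 in Btg4wt and 0.148 and 0.16 in Btg4tm oocytes. The balance of the shugoshin RNAs was thus lower in both Btg4tm libraries than in any other library. *Smc1b* to *Smc1a* was 0.776 to 0.952 in the GV, MII and Btg4wt libraries and 1.09 and 1.01 in Btg4tm, above every other library. The gene lengths behind the TPM are not given, so ratios this close to even do not show which paralog was more abundant. The ratio of *Stag3* to *Stag1* plus *Stag2* was 0.0141 to 0.0729 over all libraries, so RNA of the meiotic STAG was a small part of the family in each.

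Further ratios were chosen after the values were seen. *Smc3* exceeded the sum of its partners *Smc1a* and *Smc1b* in every library, 2.82 and 2.59 times in GV, 4.77 and 4.73 times in MII, 4 and 4.21 times in Btg4wt and 4.17 and 3.5 times in Btg4tm oocytes. The GV libraries were the lowest. *Pttg1* to *Espl1* was 459 and 320 in GV, 696 and 637 in MII, 569 and 564 in Btg4wt and 605 and 685 in Btg4tm oocytes. Securin RNA was therefore higher relative to separase RNA in all MII groups than in GV, Btg4tm included.

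**Figure D3:**
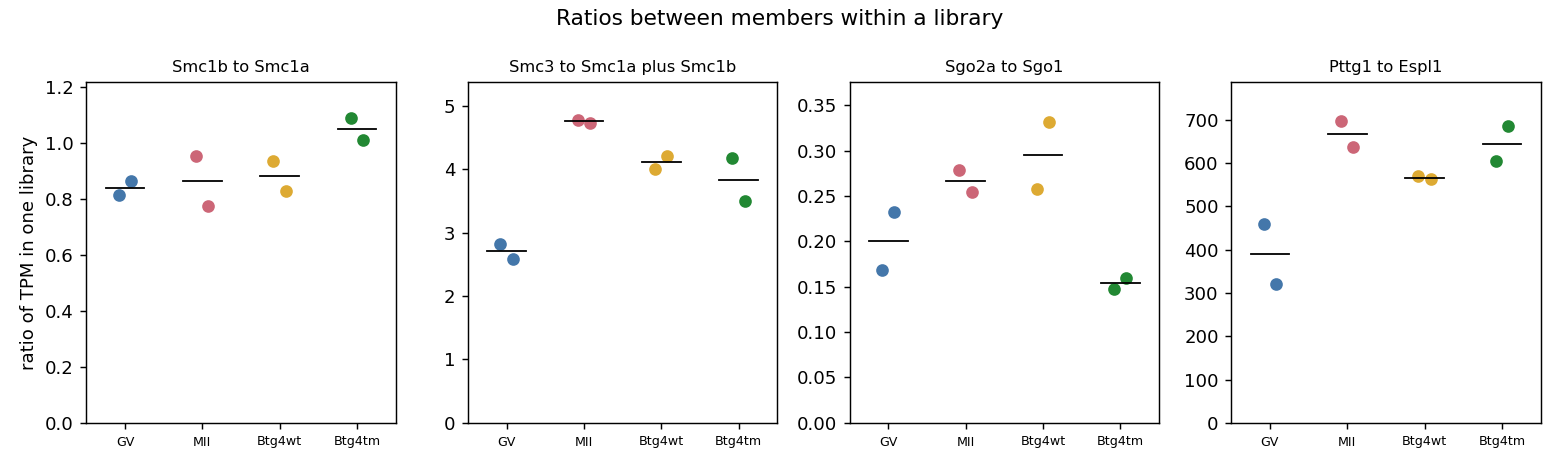
Ratios of TPM between members of the same library (vertical axes, each starting at 0), by group; points are single libraries and lines are the means of 2. Btg4tm libraries have the highest Smc1b to Smc1a ratio (1.09 and 1.01) and the lowest Sgo2a to Sgo1 ratio (0.148 and 0.16), and GV libraries the lowest ratios of Smc3 to its SMC1 partners and of Pttg1 to Espl1.

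The 3′ ends of the member transcripts were searched for letters of the cytoplasmic polyadenylation element, the site through which the CPEB protein lengthens tails of stored mRNAs in maturing oocytes. The motifs were TTTTAT and TTTTAAT for the element and AATAAA and ATTAAA for the cleavage hexamer, on the sense strand in the last 150 bases of the annotated transcript (GENCODE M21, GRCm38), and matches were allowed to overlap. The element was in 2 of the 9 members tested, *Sgo1* and *Sgo2a*, against 24.8% of 11087 genes tested that had a coding transcript. For comparison it was in 39.7% of the genes called higher and 12.3% of those called lower in MII than in GV oocytes. *Smc3* and *Pttg1*, the members with the largest rise on the median-of-ratios scale, had none in this window, and in *Pttg1*, whose 3′ UTR is 55 bases long, most of the window is coding sequence. The sites of the shugoshins and the end of the securin transcript are shown because the level of these 3 RNAs in Btg4tm oocytes lay at different distances from GV. For *Sgo1* the element starts 142 bases before the annotated end (chr17:53674904-53674933, minus strand), for *Sgo2a* 63 bases before it (chr1:58025831-58025860, plus strand), and for *Pttg1* the hexamer starts 15 bases before it (chr11:43420274-43420303, minus strand). Capitals mark the element or the hexamer, and *Pttg1* was added after its values were seen.
Sgo1: atgtatTTTTATaaaatatgtattgtatta
Sgo2a: gtatcaTTTTATcattaattctctttattt
Pttg1: tatgtatgttgtattAATAAAgcatttgtg
A match is a description of these letters and not of a bound site.

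Partner genes were followed in fixed lists. Of the other cohesin and shugoshin genes *Stag1*, *Stag2*, *Rad21l* and *Sgo2b*, 2 were called higher in MII than in GV oocytes, where 12.5% of all genes were. In Btg4tm against Btg4wt oocytes 1 was called lower, where 7.94% of all genes were. The medians were 1.08 and -0.8, against 0 and 0.01 for all genes. Scaling to the mitochondrially encoded RNAs turned both directions for all 4. *Stag2*, a STAG of general cohesin, had 7.54 and 9.22 scaled TPM in GV, 21.9 and 23.9 in MII, 21.7 and 20.5 in Btg4wt and 10.1 and 9.98 in Btg4tm oocytes. It rose by a log2 fold change of 1.35 in MII (adjusted p = 1e-04 from limma) and fell by 1 on the log2 scale in Btg4tm oocytes (adjusted p = 0.00083 from limma), the latter just past the threshold and lost without any of 4 single libraries: GV replicate 1, GV replicate 2, Btg4wt replicate 1 or Btg4tm replicate 2. *Stag1* stood at 0.93 and -0.68, without a call. *Sgo2b*, which shares sequence with *Sgo2a*, rose by 1.23 on the log2 scale in MII (adjusted p = 0.00063 from limma), a call lost without GV replicate 1, and stood at -0.87 in Btg4tm oocytes (adjusted p = 0.0057 from limma). *Rad21l*, the remaining meiotic kleisin, stood at 0.37 in MII against GV (adjusted p = 0.21 from limma) and at -0.73 in Btg4tm against Btg4wt oocytes (adjusted p = 0.034 from limma).

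Genes that load, acetylate or release cohesin went both ways. Of 9 tested, 3 were called higher and 1 lower in MII than in GV oocytes, where 12.5% and 24% of all genes were. In Btg4tm against Btg4wt oocytes 2 were called lower and none higher, where 7.94% and 18.1% of all genes were. The medians of the 9 were 0.24 and -0.6. *Wapl*, which opens the ring without cleavage, had 82.6 and 59.1 scaled TPM in GV, 316 and 293 in MII, 241 and 215 in Btg4wt and 160 and 139 in Btg4tm oocytes. Its rise, 2.11 on the log2 scale (adjusted p = 1.4e-05 from limma), put it at the 99.7 percentile of all genes, and in Btg4tm oocytes it stood at -0.6 (adjusted p = 0.014 from limma). The loader *Nipbl* rose by 1.5 and the acetyltransferase *Esco1* by 1.61 on the log2 scale in MII, and they fell by 1.07 and 1.03 in Btg4tm oocytes (adjusted p at most 0.00031 from limma), with both falls lost without Btg4tm replicate 2 and that of *Nipbl* also without Btg4wt replicate 1. *Esco2*, the paralog of *Esco1*, stood at 0.96 and -0.69 without a call. *Cdca5*, encoding sororin, which protects cohesin from WAPL, went the other way. It had 517 and 461 scaled TPM in GV, 208 and 210 in MII, 224 and 213 in Btg4wt and 421 and 395 in Btg4tm oocytes, and fell in MII by 1.22 on the log2 scale (adjusted p = 1.7e-05 from limma). It stood at 0.9 in Btg4tm oocytes (adjusted p = 0.00014 from limma). Scaled to the mitochondrially encoded RNAs, *Cdca5* kept both directions, whereas *Wapl*, *Nipbl*, *Esco1* and *Esco2* were lower in MII, *Wapl* by 0.1, and *Wapl*, *Esco1* and *Esco2* were higher in Btg4tm oocytes.

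The RNAs of the proteins that work with shugoshin were split, too. Of 14 tested genes for centromeric protection, PP2A subunits and kinases of REC8, 1 was called higher and 3 lower in MII than in GV oocytes. Of all genes 12.5% were called higher and 24% lower there. In Btg4tm against Btg4wt oocytes 2 were called higher and none lower, where 18.1% and 7.94% of all genes were. The medians of the 14 were -0.13 and -0.04. On the mitochondrial scale all 14 were called lower in MII, where 81.6% of all genes were. *Meikin*, a meiotic kinetochore protein that recruits PLK1 and is needed for centromeric protection, had 45.2 and 39.7 scaled TPM in GV, 5.82 and 7.11 in MII, 5.91 and 7.38 in Btg4wt and 37.2 and 38.5 in Btg4tm oocytes. Its level in Btg4tm oocytes was thus close to GV, and with the median of ratios it went in the opposite direction to *Sgo2a*. On the mitochondrial scale both were lower in MII than in GV, *Meikin* at -4.54 and *Sgo2a* at -0.83. With the median of ratios *Meikin* fell by 2.54 on the log2 scale in MII (adjusted p = 6.1e-06 from limma) and rose by 2.35 in Btg4tm oocytes (adjusted p = 1.5e-05 from limma). *Ppp2ca*, the catalytic subunit of PP2A, followed *Meikin*, with 63.1 and 53.1 scaled TPM in GV, 16.2 and 16.4 in MII, 14.4 and 10.1 in Btg4wt and 63.3 and 62.1 in Btg4tm oocytes. Its log2 fold changes were -1.77 (adjusted p = 4.9e-05 from limma) and 2.29 (adjusted p = 2.2e-05 from limma), and both directions of *Meikin* and *Ppp2ca* held with mitochondrial scaling. Exons of other genes overlap 41.3% of the exonic bases of *Ppp2ca*, so its counts are uncertain. The kinase genes of casein kinase 1 diverged, *Csnk1d* falling by 1.15 (adjusted p = 0.0028 from limma) and *Csnk1e* rising by 1.13 on the log2 scale in MII (adjusted p = 2.5e-05 from limma), and the rise of *Csnk1e* turned to -1.07 with mitochondrial scaling. The fall of *Csnk1d* was not called without MII replicate 2 or with quantile normalization, nor the rise of *Csnk1e* with the TPM as deposited. *Bub1* and *Plk1* had log2 fold changes of -0.18 and -0.19 in MII, without passing the test.

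**Figure D4:**
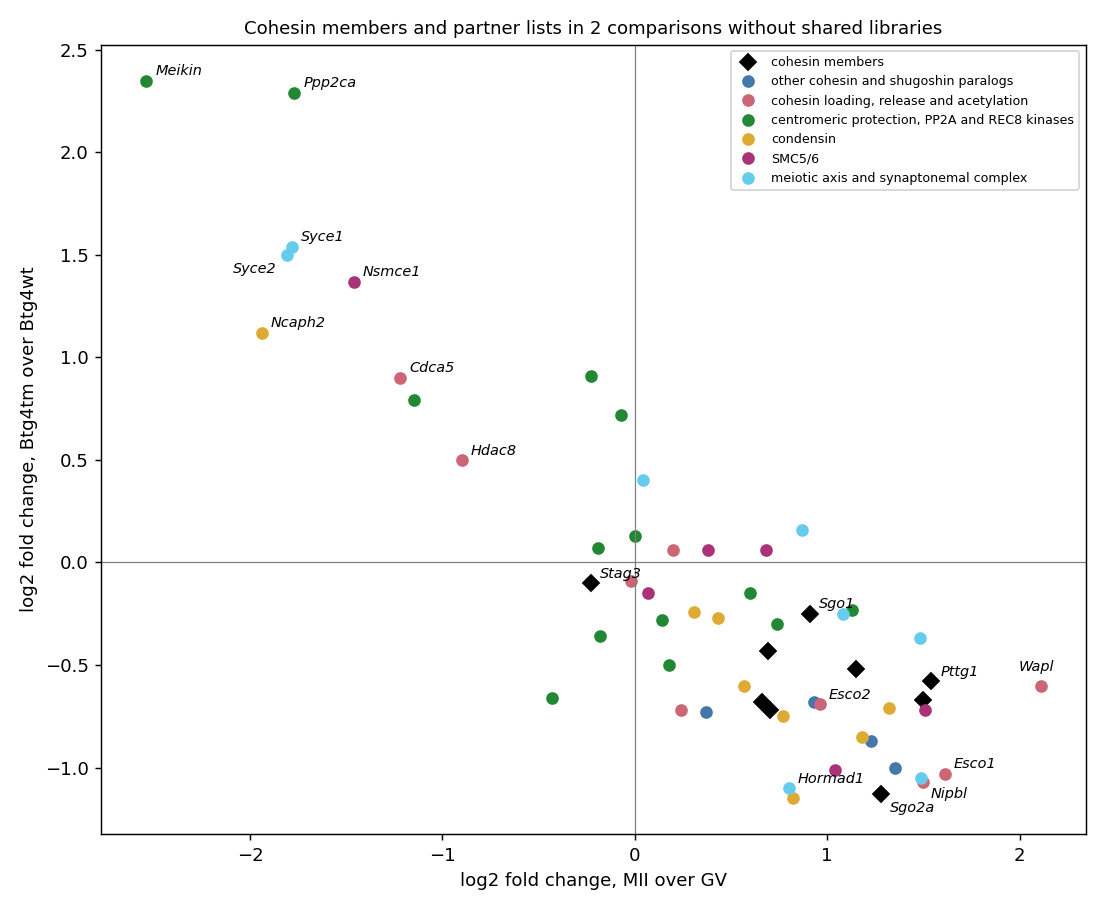
Log2 fold changes on the log2(scaled TPM + 1) scale in MII over GV (horizontal) and Btg4tm over Btg4wt (vertical) for the 9 members (diamonds) and 49 partner genes (circles, coloured by list), with libraries scaled by the median of ratios. Members other than Stag3 lie at the lower right with Wapl, Esco1 and Nipbl, and Meikin, Ppp2ca, Syce1 and Syce2 at the upper left; on the mitochondrial scale no gene shown lies right of 0.

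The related SMC complexes were compared by subunit. For reference, 12.5% of all genes tested were called higher and 24% lower in MII than in GV oocytes. In Btg4tm against Btg4wt oocytes 18.1% of all genes were called higher and 7.94% lower. Of 8 condensin genes, which encode the complex that compacts chromosomes, 2 were called higher (*Smc4* at 1.32 and *Ncapg2* at 1.18) and 1 lower (*Ncaph2* at -1.94) in MII than in GV oocytes. The medians of the 8 were 0.67 in MII against GV and -0.66 in Btg4tm against Btg4wt oocytes. In the latter *Ncapd3* was called lower at -1.15 and *Ncaph2* higher at 1.12, the call on *Ncaph2* being lost without Btg4wt replicate 2 or with quantile normalization. Exons of *Sco2* and *Tymp* overlap 19.7% of the exonic bases of *Ncaph2*. Of 6 genes of the SMC5/6 complex, which acts in DNA repair, *Smc6* at 1.51 and *Smc5* at 1.04 were called higher and *Nsmce1* at -1.46 lower in MII. In Btg4tm oocytes *Nsmce1* was called higher at 1.37 and *Smc5* lower at -1.01, and both calls on *Smc5* were lost with 1 library left out, GV replicate 2 for the first and either Btg4wt replicate 2 or Btg4tm replicate 2 for the second. The medians of the 6 were 0.53 and -0.05. With mitochondrial scaling all 14 genes of these complexes were lower in MII. In Btg4tm against Btg4wt oocytes 7 of the 8 condensin genes and 5 of the 6 SMC5/6 genes were then above 0, with medians of 0.36 and 1.03, and *Ncapd3* at -0.09 and *Smc5* at -0.02 were not called.

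The RNAs of axis and synaptonemal complex proteins, which act at the stage at which homologous chromosomes pair, also split. Of 8 tested, 3 were called higher in MII (*Sycp2*, *Sycp3* and *Tex12*) and 2 lower (*Syce1* and *Syce2*), where 12.5% and 24% of all genes were. In Btg4tm against Btg4wt oocytes 2 were called higher (*Syce1* and *Syce2*) and 2 lower (*Sycp2* and *Hormad1*), where 18.1% and 7.94% of all genes were. The medians of the 8 were 0.84 and -0.05. *Sycp2*, an axis component, had 22.9 and 23.8 scaled TPM in GV, 73.6 and 61.7 in MII, 57.1 and 61.9 in Btg4wt and 28.2 and 28.3 in Btg4tm oocytes. Its log2 fold changes were 1.49 and -1.05 (adjusted p = 2.2e-05 and 0.00023 from limma), with the second call lost without Btg4wt replicate 2. *Syce2*, a central element protein, had 664 and 688 in GV, 192 and 191 in MII, 192 and 207 in Btg4wt and 555 and 576 in Btg4tm oocytes, with log2 fold changes of -1.81 and 1.5 (adjusted p = 1.7e-06 and 6.5e-06 from limma). *Syce1* stood at 1.54 in Btg4tm oocytes, a call lost without Btg4wt replicate 2 or Btg4tm replicate 2. *Hormad1*, another axis gene, had 75.9 and 94.1 scaled TPM in Btg4wt and 24.3 and 62.4 in Btg4tm oocytes, and its call at -1.1 (adjusted p = 0.036 from limma) was lost without any of 5 single libraries: GV replicate 1, GV replicate 2, Btg4wt replicate 1, Btg4wt replicate 2 or Btg4tm replicate 1. With mitochondrial scaling *Hormad1* was at -0.03 in Btg4tm oocytes. On that scale *Syce2* kept both directions, and *Sycp2* was lower in MII and at 0.01 in Btg4tm oocytes. For *Sycp3*, at 1.48 in MII, exons of *Chpt1* overlap 52.2% of the exonic bases.

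The genes with the most similar pattern over the 8 libraries were found by the root mean square difference of log2(scaled TPM + 1), each gene centred on its mean, among 6882 genes that averaged 10 scaled TPM or more. For *Smc3* these were *Plk4* and *Cep55*, and for *Pttg1* *Omt2a* and *Rala*. For *Sgo1* they were *Ms4a1* and *Grn*, for *Rad21* *Fam76b* and *4833420G17Rik* and for *Espl1* *Cul4b* and *Mmgt1*. *Smc1a* was followed most closely by *Nsun3* and *Stat4*, and *Smc1b* by *Atat1* and *Cd55*. The differences of these pairs were 0.04 to 0.07 on the log2 scale and the Pearson correlations 0.983 to 0.997 over 8 libraries that fall into 4 groups. None of these genes was itself a member or a listed partner.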

How the data were processed

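The 8 libraries were grouped by their labels. Members and gene lists were chosen with earlier results of these data known. The authors trimmed reads with Trim Galore 0.6.10, aligned them with HISAT2 2.2.0 to GRCm38 (GENCODE vM25), counted exons without strand with featureCounts 2.0.6, dropping poorly mapped reads, and deposited TPM per gene symbol. The gene lengths behind the TPM are not given in the sources used here. The authors' DESeq2 test on counts was not used, since TPM are not counts.

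From the TPM, 15962 genes listed in all libraries were used (1422 were in the control tables only, 486 in the injection tables only). Libraries were scaled by median of ratios, and log2(TPM + 1) was fitted with limma 3.58.1 in R 4.3.3, with one coefficient per group, eBayes with trend and Benjamini-Hochberg adjustment over 13968 genes that reached 1 TPM in 2 or more libraries. A call required a change over 1 on the log2 scale, in either direction, with an adjusted p-value under 0.05. A percentile ranks a log2 fold change among all genes tested. The fit was tested on simulated data, against a pass mark that was lowered after a first result fell short of it. Transcripts and gene positions came from GENCODE M21 on GRCm38: of the genes tested 13663 matched by symbol, of which 11094 are protein-coding, and a transcript with an annotated 3′ end was found for 11087. Partner genes named were those with the largest change among called genes, up to 4 a list, plus *Stag1*, *Stag2*, *Wapl*, *Nipbl*, *Esco2* and *Meikin*. Others named outside this rule (*Rad21l*, *Bub1*, *Plk1*, *Tex12*, *Hormad1* and the overlapping genes) were chosen after their values were seen. The genes nearest in pattern to *Sgo2a* are not reported here. Alternatives are given in the closing section.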

Additional observations from a re-analysis of the deposited data

How the results depend on the processing

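Scaling decided the signs. Setting the mitochondrially encoded RNAs equal gave, for MII against GV, 6 members called lower and 0 called higher, and for Btg4tm against Btg4wt 0 called lower. In MII against GV the log2 fold changes turned to -1.46 (*Smc1b*), -1.51 (*Smc1a*), -0.71 (*Smc3*), -1 (*Rad21*), -1.28 (*Sgo1*), -0.83 (*Sgo2a*), -1.4 (*Espl1*) and -0.68 (*Pttg1*). In Btg4tm against Btg4wt they turned to 0.63 (*Smc1b*), 0.38 (*Smc1a*), 0.41 (*Smc3*), 0.4 (*Stag3*), 0.53 (*Rad21*), 0.83 (*Sgo1*), 0.31 (*Espl1*) and 0.51 (*Pttg1*). In Btg4wt against MII they turned to 0.42 (*Smc3*), 0.18 (*Rad21*), 0.4 (*Sgo1*) and 0.3 (*Pttg1*), and in Btg4tm against GV to -0.2 (*Smc1b*), -0.52 (*Smc1a*), -0.29 (*Rad21*), -0.06 (*Sgo1*), -0.4 (*Sgo2a*) and -0.6 (*Espl1*). The same scaling also moved the median of all genes, and the cause of these turns was not tested. Calls over all genes were then 81.6% lower and 0.0501% higher in MII against GV, and 0.494% lower and 43.6% higher in Btg4tm against Btg4wt. Quantile normalization moved the median of all genes from 0 to 0.28 in the first comparison and from 0.01 to -0.19 in the second, with 19.1% called lower and 22.6% higher in the first comparison against 24% and 12.5% as reported, and 13% lower and 14.7% higher in the second against 7.94% and 18.1%. The TPM as deposited moved the median from 0 to -0.13 in MII against GV and from -0.08 to -0.21 in Btg4tm against GV.

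Without a minimum fold change, 8 members were higher in MII than in GV, 7 lower in Btg4tm than in Btg4wt and 3 higher in Btg4tm than in GV. Quantile normalization put *Stag3* at 0.08 in MII against GV. With the TPM as deposited, *Smc1a* was at -0.06 and *Espl1* at -0.14 in Btg4tm against GV; the cause was not tested. No filter on low values, a pseudocount of 0.1 TPM, eBayes without trend, an adjusted p-value under 0.01 and a fit of the 4 libraries of a comparison alone changed the sign or the call of no member. A minimum of 5 TPM left *Stag3* out of the test and changed no other.

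Leaving out single libraries gave 0 to 1 members called lower in Btg4tm than in Btg4wt. *Stag3* ranged from -0.32 to 0.12 in Btg4tm against Btg4wt, from -0.08 to 0.35 in Btg4wt against MII and from -0.43 to 0.01 in Btg4tm against GV. In Btg4wt against MII *Sgo2a* ranged from -0.12 to 0.23 and *Espl1* from -0.03 to 0.11. In Btg4tm against GV *Smc1a* ranged from -0.04 to 0.21 and *Espl1* from -0.08 to 0.13. The lone library left in a group was assumed to vary like the other groups.

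Adding 1 TPM to each gene before a ratio moved *Stag3* to *Stag1* plus *Stag2* to 0.11 in GV, 0.0442 in MII, 0.0541 in Btg4wt and 0.0928 in Btg4tm. It moved *Sgo2a* to *Sgo1* to 0.163 in Btg4tm, *Pttg1* to *Espl1* to 542 in Btg4wt and *Smc3* to its SMC1 partners to 4.66 in MII.

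The labels give the groups the same replicate numbers, but libraries with the same number did not deviate together (correlations of the deviations from -0.0539 to 0.0555). These values cannot tell whether libraries with the same number shared mice or a collection. With the replicate block, 4 members were called higher in MII than in GV and 1 lower in Btg4tm than in Btg4wt, as without it. Depth cannot be had from TPM, so what it limits, above all for *Stag3*, cannot be stated.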
